A study of Brachypodium distachyon with 12 samples.

Results

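The transcripts described here were those with clearly more read pairs in vascular bundles (VBs) than in parenchyma of the shoot apex, yet with some pairs in parenchyma too. They were chosen by level in CPM, the read pairs of a transcript per 1000000 pairs of its library. A transcript was kept with at least 1 pair in some parenchyma library, a mean over the 9 VB libraries of at least 5 CPM, and a lowest VB level more than 2 times its highest parenchyma level. This selected 175 transcripts of 175 loci, of 34310 transcripts in all and of 15141 with a mean VB level of at least 5 CPM. A further 19 transcripts met the same levels without a pair in parenchyma and were not members, and 1 transcript of a set of 6 loci left out beforehand was dropped. Because the selection used the contrast of VBs with parenchyma, every value of that contrast below is a description of what was selected.

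VBs and parenchyma of the grass *Brachypodium distachyon*, wild-type line Bd21-3, were cut out of shoot apices by laser capture microdissection at 19 days, as the labels give it. VB type 1 had no visible protoxylem cell, VB type 2 had 1 or 2 and VB type 3 had 3 or 4, while the parenchyma came from the centre of the stem. Each group had 3 libraries, each made from 500 pg of RNA out of several captured pieces of tissue. The sources did not agree on whether the 3 libraries of a group were separate biological samples, so the p-values below measure the spread between these libraries, which may be technical. All groups shared the wild-type background, and none carried a transgene or a treatment. A single abundant transcript, Bradi2g12067.1, made up 26.1 to 54.2% of pairs in the VB libraries and 15.1, 21.0 and 86.3% of those of parenchyma replicates 1, 2 and 3. It was left out of all counts and totals. The remaining depth was 9080187 to 13886473 pairs in VB libraries, against 23109703, 18609862 and 1768043 pairs in parenchyma replicates 1, 2 and 3. A level of 3 pairs therefore stood for 0.130 to 0.330 CPM in 11 libraries and for 1.70 CPM in parenchyma replicate 3, where 1 pair was worth 0.566 CPM. As a description of the tissues, 39 photosynthesis transcripts summed to 4414 to 10515 CPM in VB libraries, against 17686 to 39019 CPM in parenchyma. Of these, 35 had the higher mean in parenchyma. The study had used the low chlorophyll of early procambium to find nascent VBs, so this difference is no independent check of the tissue labels. Of these 39 transcripts, 1 was at 0 in every VB library and 2 were at 0 in every parenchyma library. Of the 35 that could be tested, 33 passed lower in VBs (edgeR quasi-likelihood test, Benjamini-Hochberg adjusted p under 0.05), although 34 of the 39 had come from the study's own gene lists on these libraries. The part of this difference in tissue make-up in the members' levels was not tested.

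A vascular bundle joins xylem, which carries water through dead, thick-walled tracheary elements, with phloem, which carries sugars through living sieve elements. Both form from the procambium, whose growth and fate are guided by auxin and cytokinin signalling and by CLE peptides read by receptor kinases. Xylem cells deposit a secondary wall and then digest their own contents with proteases, and callose, a beta-1,3-glucan, lines and gates the pores of sieve elements and plasmodesmata. Gene names below are those of the best Arabidopsis or rice match in the study's annotation, and roles are mostly known from Arabidopsis.

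The members took a small share of each library. They held 0.700 to 1.30% of the pairs in VB libraries, against 0.0846, 0.0832 and 0.0658% in parenchyma replicates 1, 2 and 3. Single members averaged 5.003 to 1163 CPM in VBs, with a median of 23.6 CPM, against 0.0144 to 47.6 CPM in parenchyma, with a median of 1.18 CPM. The ratio of the lowest VB level to the highest parenchyma level had a median of 3.14 over the members and lay below 3 for 81 of them, between 3 and 10 for 71 and above 10 for 23. In these bulk samples, fewer cells expressing a gene and less RNA per cell cannot be told apart. Whether all pairs counted in parenchyma libraries came from parenchyma cells was not tested.

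How far the members were "present" in parenchyma differed widely. Pairs were found in all 3 parenchyma libraries for 82 members, in 2 for 59 and in 1 for 34. By library, 150, 154 and 94 members had a pair in parenchyma replicates 1, 2 and 3. The lower number belonged to the shallowest library. At one end, 54 members were at or above 1 CPM in each parenchyma library and 68 had at least 100 parenchyma pairs in all. At the other, 32 members had no more than 3 pairs in any parenchyma library, and 12 rested on 1 pair in the whole of parenchyma. For these, presence in parenchyma was a matter of single read pairs. The counting error of the ratio that selected the members was accordingly uneven, and its 95% interval (exact Clopper-Pearson bounds for 2 counts, covering counting error only) included 1 for 17 members and 2 for 86.

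**Figure D1:**
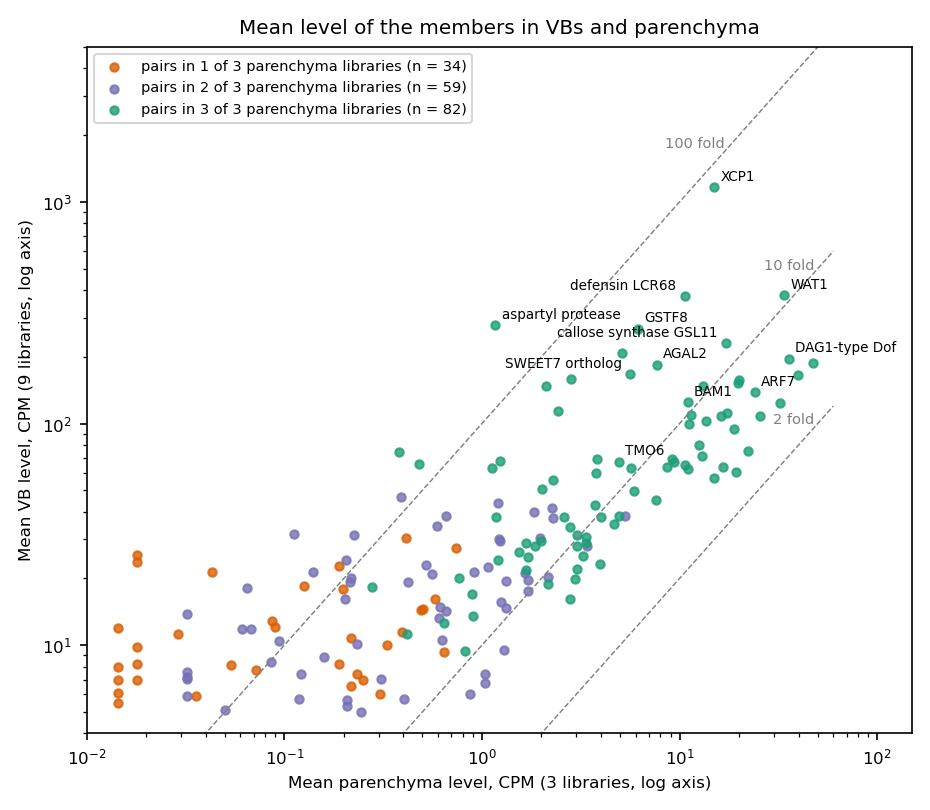
Mean VB level (9 libraries, vertical log axis, CPM) against mean parenchyma level (3 libraries, horizontal log axis, CPM) for each of the 175 members, coloured by the number of parenchyma libraries with a pair; dashed lines mark ratios of 2, 10 and 100. Members with pairs in all 3 parenchyma libraries lie to the right, and XCP1, at 1163 CPM in VBs and 14.99 CPM in parenchyma, lies above all others.

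The parenchyma level was also no fixed share of the VB level. Among the 98 members with at least 10 pairs in parenchyma replicate 1, the parenchyma level was 0.201 to 38.1% of the transcript's own VB mean, with a median of 11.8%. The same share ran from 0.213 to 34.9% with a median of 10.4% for 111 members in replicate 2, and from 1.17 to 33.5% with a median of 15.04% for 31 members in replicate 3. The minimum of 10 pairs stands for a higher level in the shallow replicate 3 and leaves out the scarce members. Over all 175 members, the median share was 4.28, 5.64 and 1.48% in parenchyma replicates 1, 2 and 3.

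The proteases held the member with the highest CPM in VBs, before any correction for transcript length. XCP1 (Bradi2g39320.2, chromosome 2) encodes a xylem cysteine peptidase that acts in the autolysis of tracheary elements. It had a lowest level of 313, a median of 1222 and a highest level of 1965 CPM in VB libraries, against 2.34, 29.1 and 13.6 CPM (54, 541 and 24 pairs) in parenchyma replicates 1, 2 and 3. The VB and parenchyma libraries did not overlap by construction, and the parenchyma libraries differed more among themselves than the VB libraries did. A second transcript, Bradi1g50760.1, was annotated as an aspartyl protease and had a still lower parenchyma level for its VB level. It stood at 27.3, 172 and 866 CPM as the lowest, median and highest VB level, against 0.0865, 0.591 and 2.83 CPM in the parenchyma libraries, from 2, 11 and 5 pairs. Its ratio of lowest VB to highest parenchyma level was 9.66 with an interval of 4.08 to 30.0.

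The other 6 members of the protease class averaged 8.43 to 158 CPM in VBs. They were the serine carboxypeptidase-like Bradi3g01320.1, the carboxyl-terminal proteinases Bradi2g40687.1 and Bradi2g04360.1, the oligopeptidase Bradi1g33210.2 and the subtilases Bradi1g74547.1 and Bradi2g10727.1. The serine carboxypeptidase kept a substantial level outside bundles, at 158 ± 66.1 CPM in VBs (SD, n = 9) and 20.1 ± 15.3 CPM in parenchyma (SD, n = 3). The subtilase Bradi1g74547.1 differed from it in having parenchyma pairs in 1 library only. Of 36 annotated transcripts of this class that could be tested, 7 passed higher in VBs and 13 lower (edgeR quasi-likelihood test, Benjamini-Hochberg adjusted p under 0.05), and the 7 were all members. Of all 17673 transcripts tested in that comparison, 4.66% passed, and 1.08% passed with the higher level in VBs. That was 191 higher and 633 lower with TMM scaling, against 252 higher and 336 lower with library totals. Over all transcripts, the median log2 fold change was 0.005 with TMM and 0.33 with totals. The members were selected on this contrast, so that 111 of the 175 passed it says nothing more about them.

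**Figure D2:**
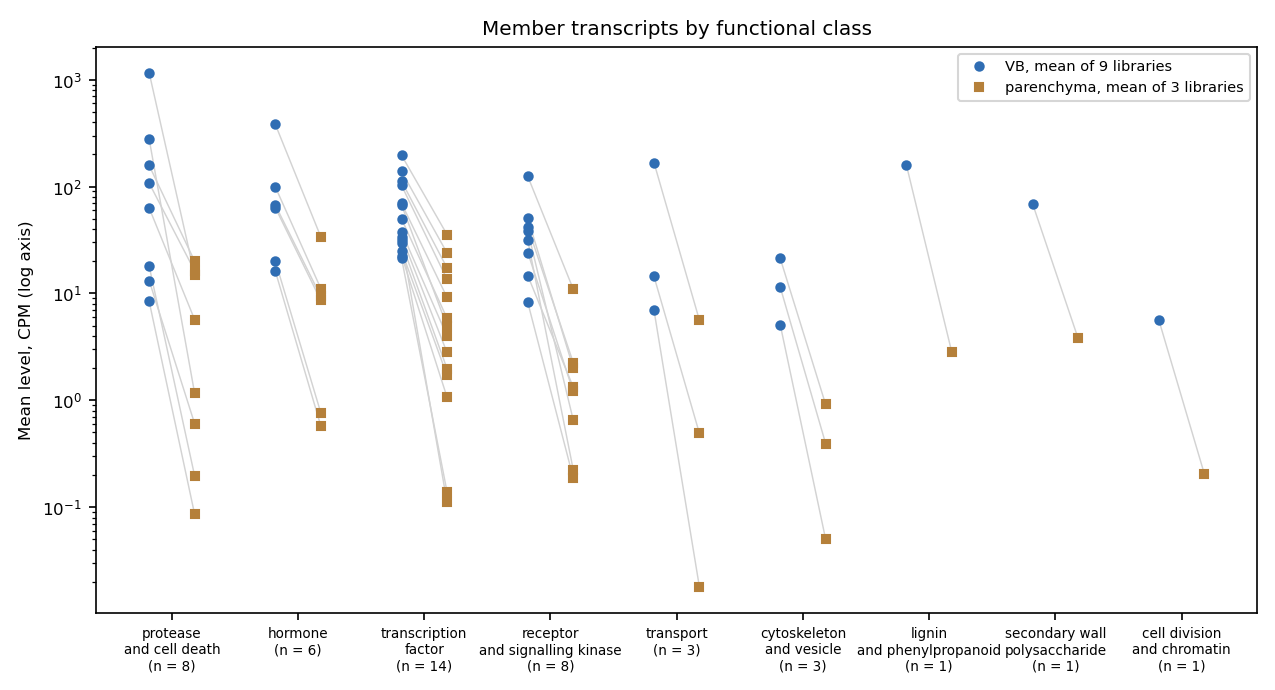
Mean level (log axis, CPM) of each member of a named functional class in VBs (circles, 9 libraries) and in parenchyma (squares, 3 libraries). The levels of a member are joined by a line, and members are grouped by class, with the class size below. The 65 annotated members outside the named classes are not shown. The protease class spans the widest range in VBs, 8.43 to 1163 CPM, and the hormone class keeps parenchyma levels of 0.577 to 33.8 CPM.

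Hormone genes were led by WAT1 (Bradi4g21220.1), whose Arabidopsis counterpart is a tonoplast auxin transporter needed for secondary walls in fibres. Its VB levels ran from 162 through a median of 370 to 629 CPM, against 45.5, 21.5 and 34.5 CPM in parenchyma replicates 1, 2 and 3. With 1513 parenchyma pairs in all, it was among the members best counted outside bundles. Auxin signalling also brought 3 Aux/IAA repressors, which block auxin response factors until auxin triggers their breakdown. IAA3 (Bradi4g02580.1) averaged 99.1 ± 37.3 CPM in VBs and 11.1 ± 3.42 CPM in parenchyma (SD, n = 9 and 3). IAA14 (Bradi1g09090.1) averaged 63.4 ± 22.5 CPM in VBs and 8.61 ± 6.59 CPM in parenchyma, and IAA26 (Bradi2g33417.1) 20.02 ± 9.21 CPM in VBs and 0.764 ± 0.588 CPM in parenchyma. The Aux/IAA members were thus spread over a wide range of parenchyma levels. For IAA26 the highest parenchyma level came from 2 pairs, and the interval of its ratio was 1.74 to 54.5.

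ARF7 (Bradi1g34340.1), an activating auxin response factor that Aux/IAA proteins repress, was counted evenly in parenchyma. It had 70.6, 114 and 283 CPM as lowest, median and highest VB level, against 23.9, 26.5 and 21.5 CPM in parenchyma replicates 1, 2 and 3. Cytokinin response was represented by the type-A regulator ARR9 (Bradi5g11350.1), a negative feedback component, at 67.0 ± 33.1 CPM in VBs and 9.37 ± 4.19 CPM in parenchyma. The type-B regulator ARR11 (Bradi2g58020.1), a transcriptional activator, was lower at 16.1 ± 7.99 CPM in VBs, and its 40 parenchyma pairs all lay in replicate 1. The 6 hormone members had a median ratio of VB to parenchyma means of 10.1, against 22.8 over all 175 members. This was not particular to them, since the 14 transcription factor members had a median of 10.8, while the 8 protease members had 49.7. Of 40 annotated hormone transcripts tested, 7 passed higher in VBs and 4 lower (edgeR quasi-likelihood test, Benjamini-Hochberg adjusted p under 0.05), and 5 of the 7 were members. Among all transcripts tested, 4.66% passed and 1.08% passed higher in VBs. Much of the annotation covers genes the study had called in these libraries, and members were selected on this contrast, so these counts are descriptions.

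Transcription factors formed the largest named class, with 14 members, 11 of them with pairs in every parenchyma library. This was also the largest named class in the annotation, with 155 transcripts. In the protease class 8 of 54 annotated transcripts were members, and in the transport class 3 of 115. Highest was a Dof zinc finger factor matched to DAG1 (Bradi3g51510.3), a regulator of seed germination in Arabidopsis. Its levels were 130, 194 and 272 CPM at the lowest, median and highest VB library, against 19.9, 35.4 and 51.5 CPM in parenchyma replicates 1, 2 and 3. TMO6 (Bradi1g26570.1), a Dof factor downstream of the auxin response factor MONOPTEROS and active in early vascular cells, was even lower outside bundles. It stood at 33.9, 54.7 and 183 CPM in VBs, against 5.63, 5.27 and 3.96 CPM (130, 98 and 7 pairs) in the parenchyma libraries. The 3 parenchyma values of TMO6 lay close together, and its highest VB value came from 1 library, VB type 1 replicate 2.

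Other transcription factor members included WRKY11 (Bradi5g20700.1), bZIP16 (Bradi1g68560.4), the abscisic acid response factor ABF3 (Bradi1g46060.1) and the zinc finger protein Bradi2g05750.1. BRXL1 (Bradi5g20580.1), of the BREVIS RADIX family that in Arabidopsis acts in protophloem, averaged 37.7 ± 21.5 CPM in VBs and 4.00 ± 2.77 CPM in parenchyma (SD, n = 9 and 3). A MYB-type factor, Bradi2g04810.1, was at the scarce end outside bundles, with 21.3 ± 14.8 CPM in VBs and 1, 7 and 0 pairs in parenchyma replicates 1, 2 and 3. Of the 107 annotated transcription factor transcripts tested, 16 passed higher in VBs and 11 lower (edgeR quasi-likelihood test, Benjamini-Hochberg adjusted p under 0.05), and 12 of the 16 were members. The share over all transcripts was 4.66%, with 1.08% higher in VBs, and members were selected on this contrast.

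Receptor kinases of the CLAVATA1 type appeared at different levels. BAM1 (Bradi4g21830.1), a receptor for CLE peptides, had 75.5, 112 and 197 CPM as its lowest, median and highest VB level, against 5.63, 6.99 and 20.4 CPM in parenchyma replicates 1, 2 and 3. CLV1 (Bradi1g30160.1), its close relative known from the shoot meristem, averaged 31.4 ± 14.6 CPM in VBs but had only 0, 2 and 1 pairs in the parenchyma libraries. Its ratio of 23.8 therefore carried an interval of 4.21 to 947. A ligand gene of the same signalling family, CLE26 (Bradi1g54656.1), averaged 18.5 ± 8.14 CPM in VBs, with 0, 7 and 0 pairs in parenchyma. The other kinases were lower in VBs than BAM1. The highest of them, Bradi1g31800.1, averaged 50.5 ± 29.9 CPM in VBs and 2.01 ± 0.944 CPM in parenchyma. The inactive receptor kinase Bradi2g22180.1 averaged 41.8 ± 19.0 CPM in VBs and 2.26 ± 2.16 CPM in parenchyma, and the cysteine-rich receptor kinase CRK8 (Bradi1g25657.1) 38.4 ± 37.6 CPM in VBs and 0.656 ± 1.04 CPM in parenchyma. Neither receptor kinase had a pair in parenchyma replicate 3. Of 56 receptor and kinase transcripts tested, 10 passed higher in VBs and 12 lower (edgeR quasi-likelihood test, Benjamini-Hochberg adjusted p under 0.05), and 6 of the 10 were members. Again, 4.66% of all transcripts passed and 1.08% passed higher in VBs, and members were selected on this contrast.

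Transport and wall genes were fewer among the members. Most called transcripts of the transport and lignin classes were lower in VBs, as were 633 of the 824 called over all transcripts. By the edgeR quasi-likelihood test with a Benjamini-Hochberg adjusted p under 0.05, 5 of 78 transport transcripts passed higher in VBs and 31 lower, against 2 higher and 7 lower of 18 in the lignin class and 3 higher and 3 lower of 15 in the secondary wall class. Of those called higher, 2 transport, 1 lignin and 1 secondary wall transcript were members. Over all transcripts, 4.66% passed and 1.08% passed higher in VBs, and members were selected on this contrast. The classes also rest largely on genes the study had called in these libraries. The SWEET7 ortholog Bradi3g10270.1, of a family of sugar exporters, averaged 168 ± 171 CPM in VBs and 5.62 ± 4.06 CPM in parenchyma (SD, n = 9 and 3). Its VB libraries were strongly uneven, from 21.5 CPM in VB type 1 replicate 3 to 570 CPM in VB type 3 replicate 2. A dirigent-like protein, Bradi4g41300.1, of a family that steers the coupling of lignin-type monomers, averaged 159 ± 106 CPM in VBs and 2.81 ± 3.14 CPM in parenchyma. FLA1 (Bradi4g33040.1), a fasciclin-like arabinogalactan protein of the cell wall, averaged 69.0 ± 21.1 CPM in VBs and 3.82 ± 3.24 CPM in parenchyma, and its lowest parenchyma library held 1 pair. Expansin B3 (Bradi5g16497.1), a wall-loosening protein, was counted at 65.0 ± 29.1 CPM in VBs and 10.6 ± 1.38 CPM in parenchyma.

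Several members with no fixed class formed small families, put together after their values were seen. Callose synthases were represented by 3 transcripts that together averaged 288 CPM in VBs and 20.7 CPM in parenchyma. GSL11 (Bradi2g40441.1) made up most of this, with 142, 215 and 325 CPM as its lowest, median and highest VB level, against 12.1, 16.9 and 22.6 CPM in parenchyma replicates 1, 2 and 3. GSL7 (Bradi2g40460.1), which in Arabidopsis makes the callose of sieve plates, lay on chromosome 2 with 1 locus between it and GSL11. It averaged 28.8 ± 11.6 CPM in VBs and 1.67 ± 1.95 CPM in parenchyma. GSL4 (Bradi3g09320.1) was alike in level, with 27.9 ± 16.1 CPM in VBs and 1.86 ± 1.34 CPM in parenchyma. On the side of glucan breakdown and binding, the glycosyl hydrolase family 17 members Bradi1g10347.1 and Bradi1g50080.1, of a family that includes beta-1,3-glucanases, averaged 38.0 ± 16.3 and 19.4 ± 8.32 CPM in VBs. Bradi1g10347.1 had 58, 57 and 4 pairs in parenchyma replicates 1, 2 and 3, while Bradi1g50080.1 had 0, 63 and 1. Members with an X8 domain, which binds such glucans, were scarce, at 11.8 ± 9.09 CPM in VBs for Bradi2g44390.1 and 8.18 ± 6.91 CPM for Bradi4g37996.1, with 4 and 3 parenchyma pairs in all.

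Further small families had no common position. The 3 members of the cupredoxin family were plantacyanin (Bradi3g57010.1), ENODL9 (Bradi2g52155.1) and Bradi4g28950.1, and they summed to 86.2 CPM in VBs and 1.80 CPM in parenchyma. Another subtilase, Bradi4g31360.1, was the highest of its kind at 55.8 ± 24.4 CPM in VBs and 2.29 ± 2.92 CPM in parenchyma. The HVA22-type proteins Bradi3g37920.1 and Bradi2g48780.1, which shape membranes of the endoplasmic reticulum, averaged 46.8 ± 27.5 and 12.8 ± 7.34 CPM in VBs, with 3 and 6 parenchyma pairs in all. The Double Clp-N transcripts Bradi5g09657.3 and Bradi4g25150.2 averaged 114 ± 56.9 and 18.3 ± 14.9 CPM in VBs, against 2.41 ± 1.80 and 0.279 ± 0.262 CPM in parenchyma. In each of these couples both members were low outside bundles although their VB levels differed.

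Among the single annotated members, the GDSL-type lipase Bradi3g51207.1 had one of the higher parenchyma levels, at 153 ± 56.0 CPM in VBs and 19.8 ± 13.2 CPM in parenchyma. FAR4 (Bradi4g38460.1), a fatty acyl reductase that makes primary alcohols for suberin in Arabidopsis, averaged 79.7 ± 21.6 CPM in VBs and 12.5 ± 8.03 CPM in parenchyma. A membrane protein of family UPF0497, Bradi4g06396.1, stood at a similar VB level of 74.5 ± 51.1 CPM but at 0.379 ± 0.162 CPM in parenchyma, from 7, 5 and 1 pairs. Similar CPM in VBs, before any correction for length, therefore went with very different CPM in parenchyma. Genes of small RNA pathways were present too, with an Argonaute (Bradi4g08587.1) at 29.4 ± 20.1 CPM in VBs and 1.24 ± 1.65 CPM in parenchyma, and HEN1 (Bradi1g56760.1), which methylates small RNAs, at 14.8 ± 7.80 CPM in VBs and 0.615 ± 0.545 CPM in parenchyma (SD, n = 9 and 3).

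Neighbouring loci gave further families. GSTF8 (Bradi1g76080.1) and GSTF11 (Bradi1g76090.1), phi-class glutathione S-transferases that conjugate glutathione to reactive compounds, were adjacent on chromosome 1. GSTF8 ranged over 65.8, 199 and 591 CPM in VBs as lowest, median and highest level, against 6.45, 8.06 and 3.96 CPM in parenchyma replicates 1, 2 and 3. GSTF11 had 80.3, 202 and 380 CPM in VBs, against 9.69, 2.31 and 3.39 CPM in parenchyma. The levels of both genes overlapped within each tissue. The HSP21 transcripts Bradi3g20830.1 and Bradi3g20840.1, small heat shock proteins, were adjacent on chromosome 3 and averaged 147 ± 114 and 62.8 ± 38.1 CPM in VBs, against 2.11 ± 0.130 and 1.12 ± 0.0472 CPM in parenchyma. Since read pairs matching several transcripts were left out of the counts, levels of such near copies are uncertain.

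Per kilobase of transcript, the scale on which levels of different genes can be compared, the defensin-like LCR68 (Bradi1g76420.2) headed the members with 511 CPM per kb in VBs, followed by XCP1 with 494, GSTF8 with 220 and WAT1 with 212 CPM per kb. The median member had 11.4 CPM per kb in VBs. The defensin, a small cysteine-rich secreted peptide, had 72.2, 281 and 794 CPM as its lowest, median and highest VB level, against 3.98, 4.62 and 23.2 CPM in parenchyma replicates 1, 2 and 3. AGAL2 (Bradi3g29810.1), an alpha-galactosidase, had 51.6, 189 and 388 CPM in VBs, against 10.9, 9.24 and 2.83 CPM in parenchyma. Members were 231 to 6603 bases long with a median of 2039, against 1951 for all transcripts at 5 CPM or more.

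**Figure D3:**
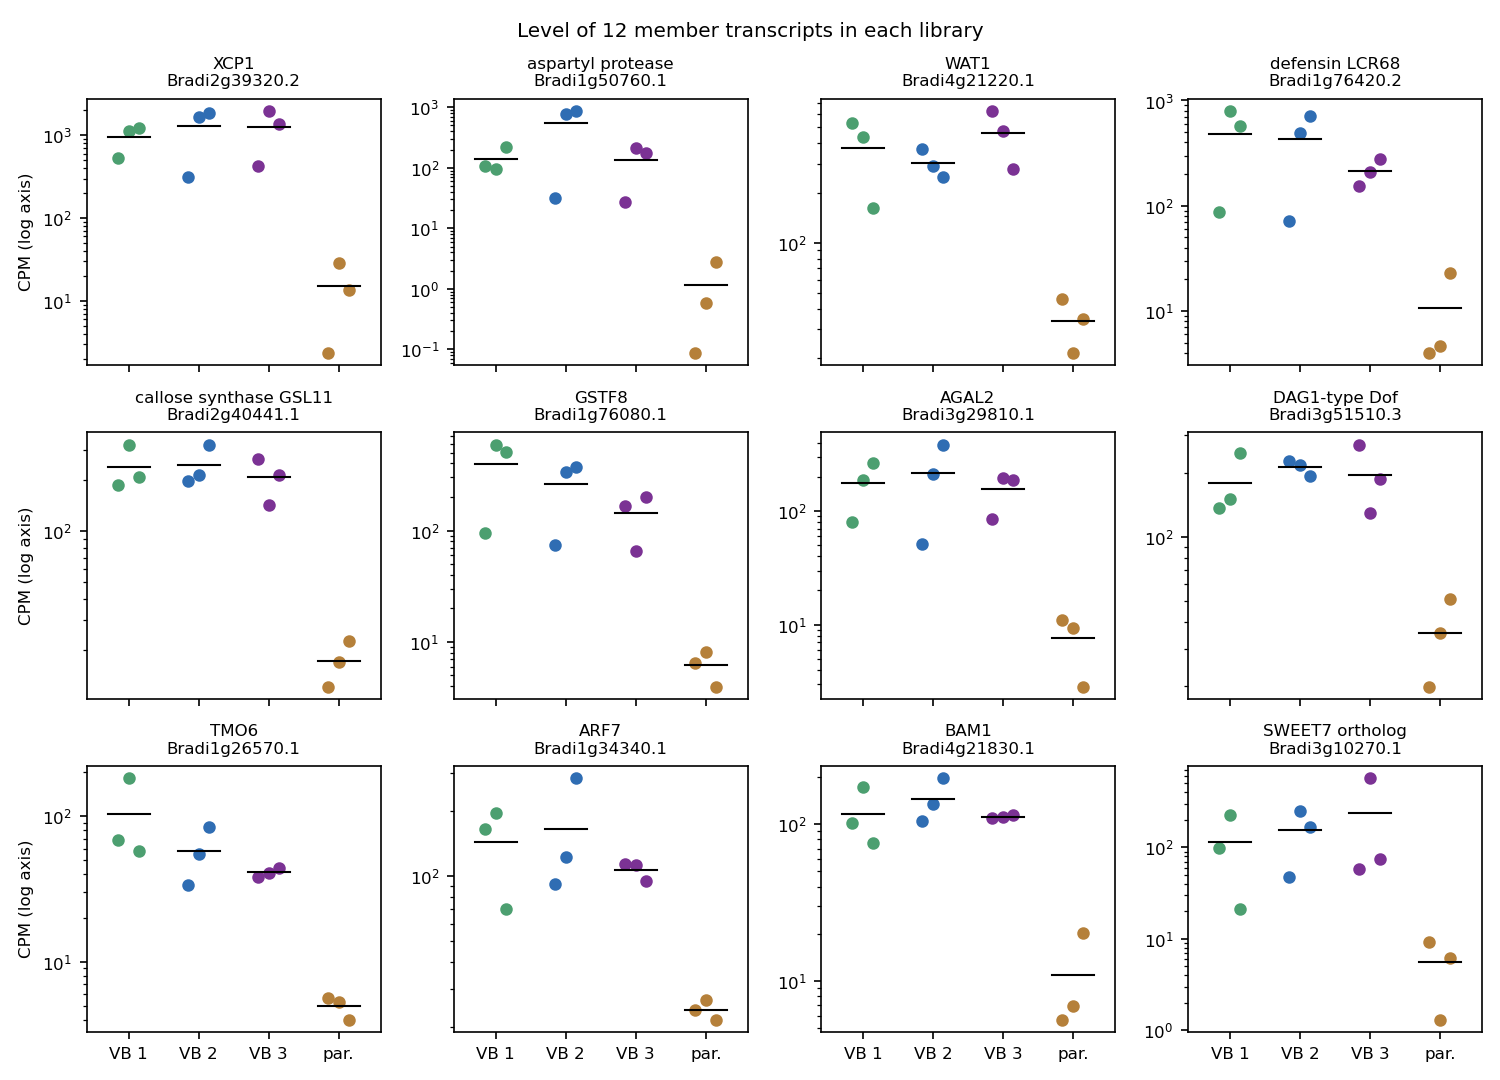
Level (log axis, CPM) of 12 members in each library of VB types 1, 2 and 3 and of parenchyma (par.); each dot is a library and each line the mean of 3. Every VB dot lies above every parenchyma dot because members were selected so, and replicates of 1 type can lie far apart, as in XCP1 with 313 and 1851 CPM in VB type 2.

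Of the 5 members with the highest parenchyma levels, 3 had no annotation. Bradi1g05650.1 stood at 165, 181 and 222 CPM as lowest, median and highest VB level, against 71.4, 36.3 and 35.1 CPM in parenchyma replicates 1, 2 and 3. Bradi2g12170.1 averaged 166 ± 25.8 CPM in VBs and 39.9 ± 20.3 CPM in parenchyma, and Bradi5g24730.1 averaged 123 ± 34.0 CPM in VBs and 32.3 ± 1.31 CPM in parenchyma (SD, n = 9 and 3). These transcripts, with WAT1 and the DAG1-type Dof factor, were even across VB libraries compared with XCP1. In all, 65 of the 175 members had no usable annotation.

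At the edges of the rule, small counts decided membership. The highest ratios belonged to Bradi4g17270.3 (unknown function), the transporter MRP11 (Bradi1g47277.1), the thiamine pyrophosphate enzyme Bradi2g03840.1, the 14-3-3 protein Bradi4g13970.3 and the peptide transporter Bradi2g50580.1. Each had no more than 2 pairs in any parenchyma library. The ratio of Bradi4g17270.3 was 101 with an interval of 17.5 to 4064, and that of MRP11 was 51.1 with an interval of 8.48 to 2088. Just inside the ratio of 2 lay Bradi2g06210.1 at 2.001, Bradi5g17790.1 (a P-type cyclin) at 2.01 and Bradi3g07421.2 at 2.01, with Bradi3g47950.1 and Bradi1g54020.1 also at 2.01. Just outside lay Bradi3g52880.1 at 1.995, and Bradi1g74882.2 and Bradi1g05306.1 at 1.997. The lowest mean VB levels inside were 5.003 CPM in Bradi4g24590.1, 5.12 CPM in Bradi4g03494.1 and 5.34 CPM in Bradi4g06317.1. The nearest outside were 4.95 CPM in Bradi1g17190.3, 4.56 CPM in Bradi1g53940.2 and 4.47 CPM in Bradi2g33940.1. Only some genes of the vasculature that the study had named were checked against the rule. Of those checked, PXY and PIN1a were not members, since a parenchyma library came too close. The lowest VB level was 1.72 times the highest parenchyma level for the receptor kinase PXY (Bradi3g17567.1) and 1.497 times for the auxin efflux carrier PIN1a (Bradi1g45020.1).

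The rule did not use the bundle types and set no minimum for a single VB library. The lowest VB level of member Bradi4g03494.1, for example, was 0.379 CPM. All 9 VB libraries did have to exceed 2 times the highest parenchyma level. A transcript near its parenchyma level in any type could therefore not be a member. The types were compared over all transcripts with that limit on the members. No member passed in any comparison of VB types, and neither did any other transcript. With edgeR's quasi-likelihood test and p-values adjusted by Benjamini-Hochberg, 0% of 18570 transcripts passed for VB type 2 over type 1, 0% of 18504 for type 3 over type 1 and 0% of 18094 for type 3 over type 2. All 175 members were tested each time. By unadjusted p under 0.05, 4 members passed for type 2 over type 1 (2.29%, against 2.22% of all transcripts), 9 for type 3 over type 1 (5.14%, against 2.72%) and 6 for type 3 over type 2 (3.43%, against 2.49%). The edgeR likelihood ratio test passed 31, 24 and 4 transcripts and the DESeq2 Wald test 26, 22 and 15, and none of them was a member. Standard errors of the members' log2 fold changes had medians of 0.71, 0.68 and 0.76, so changes of the size seen in most members could not be told from the spread between libraries.

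The direction of the fitted differences between types is given as a description. Of the 175, 113 had a lower fitted level in type 3 than in type 1, with a median log2 fold change of -0.17, against -0.04 over all transcripts tested. With any 1 library left out, 96 to 111 members were lower. For type 3 over type 2, 107 were lower with a median of -0.20, against -0.02 over all, but without VB type 2 replicate 3 it was 86 lower and 88 higher, with a median of 0.0068. For type 2 over type 1, 86 were lower with a median of 0.01, but 112 were lower without VB type 2 replicate 3 (median -0.26) and 66 without VB type 2 replicate 1 (median 0.14), so these directions depended on single libraries. By mean CPM, VB type 1 was highest for 64 members, type 2 for 68 and type 3 for 43, which was 24.6% in type 3, against 32.8% of all transcripts at 5 CPM or more. The 9 members with an unadjusted p under 0.05 for type 3 over type 1 became 19 without VB type 1 replicate 1 and 2 without VB type 1 replicate 2. The 4 for type 2 over type 1 became 8 without VB type 2 replicate 3 and 2 without VB type 1 replicate 2 or without VB type 2 replicate 2. The 6 for type 3 over type 2 became 19 without VB type 2 replicate 1 and 2 without VB type 2 replicate 2. In 9 members every type 3 library lay below every type 1 library (5.14%, against 4.8% of all tested), and in 5 every one lay above (2.86%, against 3.7%). For type 3 and type 2 the members were 7 below (4%, against 4.18%) and 5 above (2.86%, against 4.58%), and for type 2 and type 1 they were 5 below (2.86%, against 4.44%) and 7 above (4%, against 3.7%). These shares were close to the background.

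The member with the smallest p between types was Bradi1g59795.1, which had no annotation. It had 88.7, 41.8 and 62.2 CPM in the VB type 3 libraries, against 21.2, 21.0 and 13.0 CPM in those of type 1, and the libraries did not overlap. The log2 fold change was 1.79 ± 0.43 (SE), with an adjusted p of 0.9998 by the edgeR quasi-likelihood test and Benjamini-Hochberg adjustment, and adjusted values of 0.147 to 0.9999 over the alternatives. Lower in type 3 by fitted level was ENODL9 (Bradi2g52155.1), an early nodulin-like cupredoxin anchored at the cell surface. It had 13.9, 3.99 and 13.4 CPM in VB type 3, against 23.3, 55.0 and 51.1 CPM in type 1, and a log2 fold change of -2.11 ± 0.66 that did not pass. TMO6 followed the same direction with 38.3, 40.8 and 44.4 CPM in type 3, against 69.1, 183 and 57.6 CPM in type 1, and a log2 fold change of -1.34 ± 0.48 that did not pass either.

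Of the other members with the smallest p, Bradi3g44167.1, Bradi1g54020.1 and Bradi1g16490.5 had log2 fold changes of 2.22 ± 1.00, 1.21 ± 0.58 and 0.66 ± 0.32 for type 3 over type 1. On the lower side stood Bradi2g60705.1, Bradi3g02612.2 and Bradi3g13352.1 with -1.99 ± 0.68, -1.81 ± 0.62 and -2.01 ± 0.71. None had an annotation beyond an expressed protein. XCP1, which marks maturing xylem, averaged 960 ± 376, 1279 ± 842 and 1249 ± 774 CPM in VB types 1, 2 and 3 (SD, n = 3 each). Its log2 fold change for type 3 over type 1 was 0.33 ± 0.57, which did not pass. WAT1 had 0.30 ± 0.43 on the same scale.

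**Figure D4:**
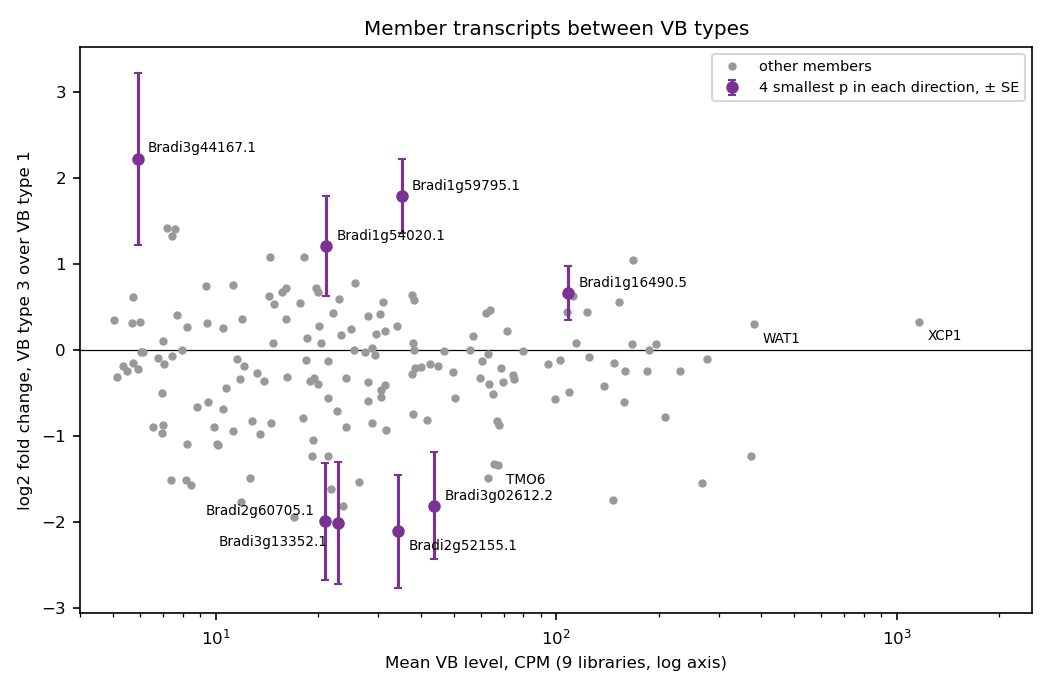
The log2 fold change of VB type 3 over VB type 1 (vertical axis, edgeR) against mean VB level (horizontal log axis, CPM) for the 175 members; purple points with bars (± SE) are the 4 members with the smallest p in each direction. The changes run from -2.11 to 2.22, more members lie below 0 (113) than above (62), and none passed the adjusted threshold.

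Members varied widely over the VB libraries. The coefficient of variation over the 9 VB libraries had a median of 56.6% in members, against 50.5% in all transcripts at 5 CPM or more, and the highest VB library exceeded the lowest by a median of 6.29 times. XCP1 was lowest in replicate 1 of each type, at 530, 313 and 427 CPM in types 1, 2 and 3. Replicate 1 was lowest in each type for 16 members (9.14%), against 7.63% of all transcripts at 5 CPM or more. In as many members, 16, replicate 1 was the highest of each type (9.14%, against 12.6% of all). Those lowest in replicate 1 included, besides XCP1, the defensin, AGAL2, CLV1, WRKY11 and bZIP16.

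The members whose log2 levels (pseudocount 1) followed XCP1 most closely over the 9 VB libraries were AGAL2 with a Pearson r of 0.93, the small GTPase ROP6 (Bradi3g11470.3) with 0.87, the unannotated Bradi3g01230.1 with 0.86, the aspartyl protease Bradi1g50760.1 with 0.86 and CLV1 with 0.85. The cupredoxin plantacyanin (Bradi3g57010.1), the xyloglucan-modifying XTH26 (Bradi3g10290.1) and the carboxyl-terminal proteinase Bradi2g04360.1 came next with 0.85, 0.82 and 0.80. An r above 0.8 was reached by 8 of 174 members (4.598%), against 2.23% of 15140 other transcripts. All points share the same 9 libraries and totals, and members were chosen to exceed parenchyma in all of them, so these values describe likeness only. Aspartyl protease levels were the most uneven of these, at 107, 96.0 and 222 CPM in VB type 1, 31.4, 770 and 866 CPM in type 2, and 27.3, 210 and 172 CPM in type 3.

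**Figure D5:**
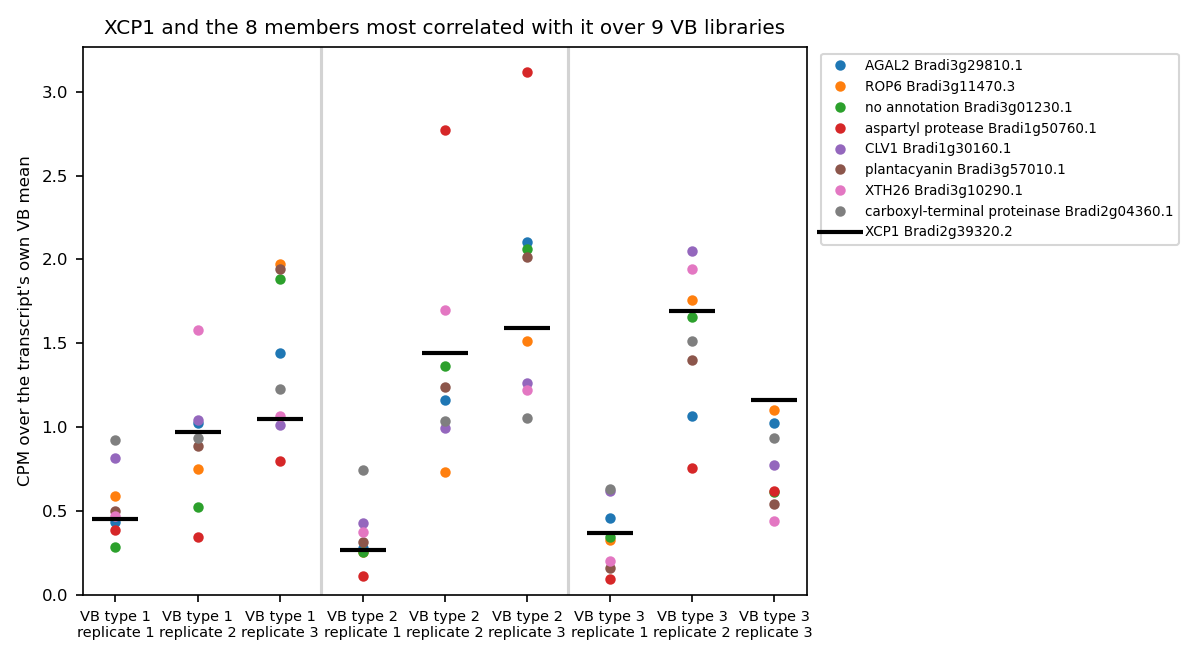
Level of XCP1 (black bars) and of the 8 members most correlated with it (dots), each divided by its own mean over the 9 VB libraries, by library of VB types 1, 2 and 3. Replicate 1 of each type holds the lowest XCP1 value (530, 313 and 427 CPM), and most of the 8 members are low in the same libraries.

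By position, members lay on all 5 chromosomes in shares near those of all transcripts at 5 CPM or more. They numbered 48, 43, 37, 28 and 19 on chromosomes 1 to 5. The share differed most on chromosome 1, with 27.4% of the members, against 30.0% of all transcripts at 5 CPM or more. Neighbours among the members came to 4 couples, 2 adjacent and 2 with 1 locus between, namely the GSTF, HSP21 and callose synthase couples and the unannotated Bradi1g70780.1 and Bradi1g70790.1.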

How the data were processed

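RNA was sequenced from 12 laser-captured samples, 3 each of VB types 1, 2 and 3 and parenchyma. Per the study's methods, the authors trimmed reads with Trimmomatic, removed ribosomal reads with sortMeRNA, aligned with Bowtie2 to 34310 transcripts and deposited, per transcript, raw counts of uniquely assigned read pairs and of single reads. Labels and methods differed on strandedness, so overlapping transcripts are uncertain.

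Levels are pair counts per 1000000 of the library total, without Bradi2g12067.1. Between VB types, transcripts with at least 1 CPM in 3 of 6 libraries were tested on the deposited counts (edgeR 4.0.16 quasi-likelihood, TMM, Benjamini-Hochberg, threshold 0.05, R 4.3.3). VBs and parenchyma were set side by side in a fit of 12 libraries (at least 1 CPM in 6). DESeq2 1.42.0, other scalings, filters and left-out libraries were alternatives. The fit was run on simulated counts with a set spread and known changes. Its power at the spread of these libraries was not tested. Functional classes came from keywords in the study's annotation, much of which covers genes the study had called in these libraries. Members and lists were chosen with earlier results of these data known. Named members were those the study names, the extremes of level, ratio and type difference, and the highest of each class; others named in the text were chosen after their values were seen. Promoter motifs were not searched, since 0 of the transcript IDs matched the RefSeq table. The 6 left-out loci are not reported here.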

Additional observations from a re-analysis of the deposited data

Results flagged for a closer look

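Over the 9 VB libraries, 41 values were checked for a library far from the others (40 named members and the members' share of pairs), and 3 met the limit, where chance gives about 1 in 20. TMO6 (Bradi1g26570.1) stood at 183 CPM in VB type 1 replicate 2, with the next library at 84.0 CPM. The SWEET7 ortholog Bradi3g10270.1 stood at 570 CPM in VB type 3 replicate 2, with the next at 249 CPM. MRP11 (Bradi1g47277.1) stood at 95.5 CPM in VB type 2 replicate 3, with the next at 42.5 CPM. The cause was not tested. These 9 libraries pool 3 bundle types.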

How the results depend on the processing

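The number of members depended on the rule and on single libraries. It was 291 at a ratio above 1.5 and 94 above 3, 82 with a pair required in each parenchyma library, and 109 with Bradi2g12067.1 kept in the totals, of which 87 were among the 175. Leaving out 1 library gave 186 to 460 members, with 460 without parenchyma replicate 1, 394 without replicate 2 and 257 without replicate 3. TMM-scaled levels gave 120, all among the 175, and single reads 177, of which 150 were. On TMM-scaled levels, or with Bradi2g12067.1 kept, 15 of the 40 named members no longer exceeded a ratio of 2. With TMM scaling, these included the DAG1-type Dof factor (Bradi3g51510.3) and the defensin-like LCR68 (Bradi1g76420.2), both highest in the shallow parenchyma replicate 3. Between VB types, the edgeR likelihood ratio test called 31, 24 and 4 transcripts and DESeq2 26, 22 and 15 for type 2 over 1, type 3 over 1 and type 3 over 2, where the quasi-likelihood test called 0. No setting run called a member between VB types. For VBs over parenchyma, 824 transcripts were called, 1772 by the likelihood ratio test and 1929 by DESeq2, with 581 to 814 on leaving out 1 library. Of the members, 111 were called there, 167 and 174 by those tests, and 70 to 105 on leaving out 1 library, with 70 without parenchyma replicate 1. The cause was not tested.

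With the replicate number as a block, 0 transcripts were called between VB types, and 768 transcripts and 99 members for VBs over parenchyma. Deviations of same-numbered VB libraries correlated at 0.21 to 0.46 for number 1, -0.06 to 0.02 for number 2 and 0.21 to 0.29 for number 3, and VB libraries were best matched by their own number in 13 of 18 comparisons, a hint of shared deviations for numbers 1 and 3. Pairing was taken only where every correlation was above 0.1, which number 2 did not meet. Depth limited parenchyma replicate 3 most, where 1 pair stood for 0.566 CPM.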
